A study of Trichoderma reesei QM6a with 6 samples.

Results

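The 7 beta-glucosidase genes of glycoside hydrolase families GH1 and GH3 that were followed here belong to the filamentous fungus Trichoderma reesei. They were cel3a (TRIREDRAFT_76672), cel3b (TRIREDRAFT_121735), cel3c (TRIREDRAFT_82227), cel3d (TRIREDRAFT_46816), cel3e (TRIREDRAFT_76227), cel1a (TRIREDRAFT_120749) and cel1b (TRIREDRAFT_22197). They were taken by locus tag from the 9113 genes of the deposited series table, and all 7 were found there. The groups were the strain QM6a with its ace1 gene intact (labelled wildtype) and an ace1 deletion in QM6a (Δace1), with 3 poly(A) RNA libraries of each. Both were grown on 1% D-glucose for 24 h in shake flasks at 28 °C and 250 rpm, and the washed mycelium was then kept on 1% D-mannitol for 3 h. The labels do not say whether the replicates were separate cultures or whether the deletion strain was 1 transformant, so the spread behind the p-values is that between these libraries. The comparison asks which of these transcripts differ between the strains after the move to D-mannitol, a carbon source that is not a beta-glucoside.

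Beta-glucosidases cut cellobiose, the disaccharide released by cellulases, into glucose and so complete the breakdown of cellulose. In T. reesei some of them also transfer glucosyl groups and form sophorose, a strong inducer of cellulase genes, so the enzymes both remove and make inducing sugars. Cel3a (also called BGL1) is known as the main secreted enzyme, and Cel3b and Cel3e are also described as secreted. Cel1a (BGL2), Cel1b, Cel3c and Cel3d are described as intracellular, and Cel1a and Cel1b have been linked to the induction of cellulases by lactose and cellulose. These classes are background knowledge and were not checked against protein sequences here. The deleted gene encodes Ace1, a DNA-binding zinc finger repressor of cellulase and xylanase genes.

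The members fall into 2 size classes by family. The coding length was 1401 bases for cel1a and 1455 for cel1b, which corresponds to 466 and 484 residues. The GH3 genes were longer, from 2103 bases for cel3d to 2625 for cel3b, or 700 to 874 residues. All 42 estimated counts of the 7 genes were whole numbers (within 1e-06), as they are when no read is divided among similar transcripts.

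Library totals ranged from 5482552 to 6424125 estimated counts for Δace1 and from 6072118 to 6938203 for QM6a. The Δace1 libraries held 6, 7 and 14 counts of the deleted gene and the QM6a libraries 8432, 7765 and 8001, so each carried the ace1 level of its label. Of 7769 genes tested across the whole table, 80.8% were called different between the strains at a Benjamini-Hochberg adjusted p below 0.05 in edgeR's quasi-likelihood test, 41.2% higher and 39.5% lower in Δace1. Counts were scaled by TMM, a correction for library composition, with factors of 1.17 to 1.20 in Δace1 and 0.818 to 0.856 in QM6a. The top 100 genes by abundance made up 28.1% to 29.5% of a Δace1 library and 33.3% to 36.3% of a QM6a library, and the part of this composition in the changes below was not tested. On the log2(TPM + 1) scale, where TPM is a level per transcript length, the log2 changes lay higher than with TMM by a median of 0.75. With library totals they lay higher by a median of 0.50. Of all calls 51.0% were higher in Δace1 after TMM, 71.8% after scaling by library totals and 80.5% in limma's test of log2(TPM + 1). In bulk libraries a lower share of expressing cells and less RNA per cell cannot be told apart.

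All 7 beta-glucosidase genes had their lowest Δace1 value above their highest QM6a value, in CPM (counts scaled by TMM to a common library size) and in TPM. Of the genes tested, which leave out cel3a, this was true of 42.0% in CPM and of 70.2% in TPM. Of the 7 genes, 6 were tested and all 6 were called higher in Δace1, against 41.2% of all genes tested, and none was called lower. All 6 were at least 2-fold higher, against 23.2% of the genes tested, and 3 were at least 4-fold higher, against 11.6%. The log2 changes ran from 1.35 to 5.92 around a median of 2.30, and the median of all genes tested was 0.034. The genes cel3b, cel3e, cel3c and cel1b passed the filter on low counts with their QM6a libraries alone. The genes cel3d and cel1a passed it only through their Δace1 libraries and cel3a did not pass it, so the count of 6 is not independent of the direction. With no filter on low counts all 7 were called higher, against 37.9% of 8861 genes.

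**Figure D1:**
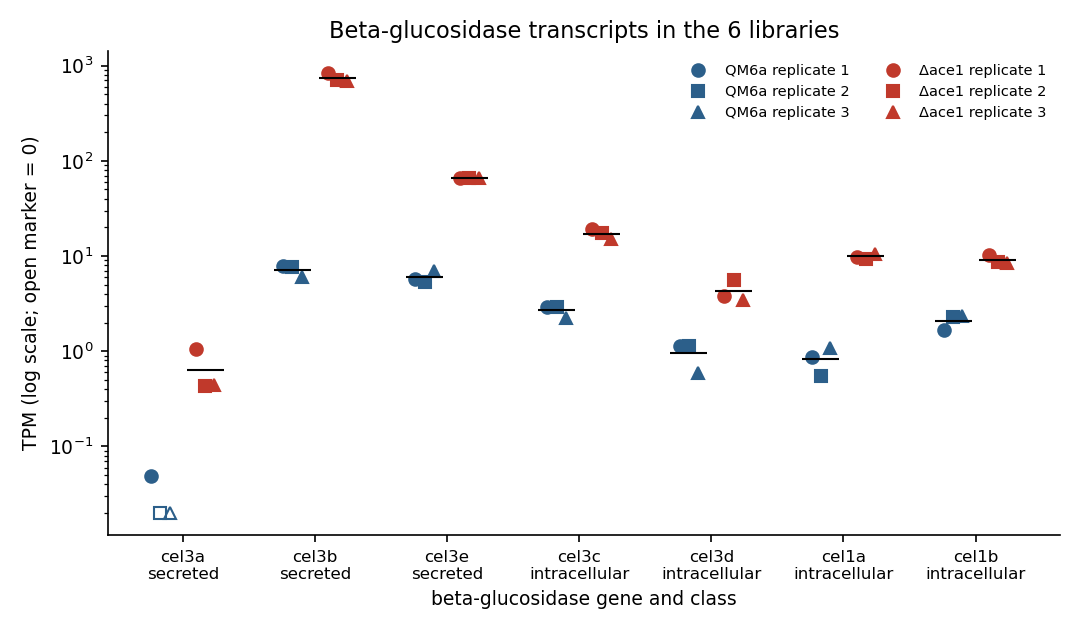
TPM of each beta-glucosidase gene in the 6 libraries on a log axis, with QM6a in blue and Δace1 in red, 1 marker shape per replicate and a line at the mean of 3 where no library is at 0. Open markers stand for libraries with no count; in each gene the 3 red markers lie above the 3 blue ones, and the gap is widest for cel3b among genes with counts in every library.

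Among the secreted enzymes, cel3b stood far above the rest in Δace1. Its transcript was at 842, 714 and 684 TPM in Δace1 replicates 1, 2 and 3 and at 7.88, 7.60 and 6.06 TPM in the QM6a replicates. Every Δace1 library was thus far above every QM6a library, and the spread within a strain was small beside the gap. Its mean CPM was 1792 ± 165 in Δace1 and 29.5 ± 4.59 in QM6a (SD, n = 3 each), and the log2 change was 5.92 ± 0.12 (SE; edgeR, adjusted p = 3.1e-16). The mean CPM differed 60.7-fold and the mean TPM 104-fold, since the scaling differs. Of 7769 genes tested, cel3b had the 70th largest log2 change. By its mean TPM it ranked 203rd of all genes in Δace1 and 5856th in QM6a.

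The secreted enzyme gene cel3e also rose, from a level close to that of cel3b in QM6a. It was at 65.5, 66.6 and 66.8 TPM in Δace1 and at 5.76, 5.32 and 6.89 TPM in QM6a. The Δace1 libraries were nearly equal in TPM, with a coefficient of variation of 1.04% against 13.5% in QM6a. This coefficient was 3.80% against 13.2% in CPM. In CPM the means were 139 ± 5.28 in Δace1 and 21.4 ± 2.82 in QM6a (SD, n = 3 each), and the log2 change was 2.70 ± 0.09 (SE; edgeR, adjusted p = 8.29e-14). In QM6a replicate 3 cel3e was above cel3b, and in replicates 1 and 2 it was below. The ratio of cel3b to cel3e in TPM was 1.37, 1.43 and 0.879 in the QM6a replicates and 12.9, 10.7 and 10.2 in those of Δace1.

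The main secreted enzyme gene, cel3a, remained close to the detection floor. Its Δace1 libraries held 16, 6 and 6 counts and its QM6a libraries 1, 0 and 0, and its level in Δace1 was 0.638 ± 0.352 TPM (SD, n = 3). No Δace1 library overlapped a QM6a library, but replicate 1 of Δace1 held more counts than the other two together. Over the 3 libraries of each strain this was 28 counts against 1, a ratio of 21.4 per scaled library size with a 95% exact counting interval of 3.54 to 876. The interval covers counting error only, and 3 counts, the floor used here, came to 0.432 to 0.547 CPM of a library total. With no filter on low counts the fit across all genes called cel3a higher (edgeR, adjusted p = 0.000437), and its fitted change rests on the single QM6a count. By mean TPM cel3a was the lowest of the 7 genes in both strains and ranked 8161st of all genes in Δace1.

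**Figure D2:**
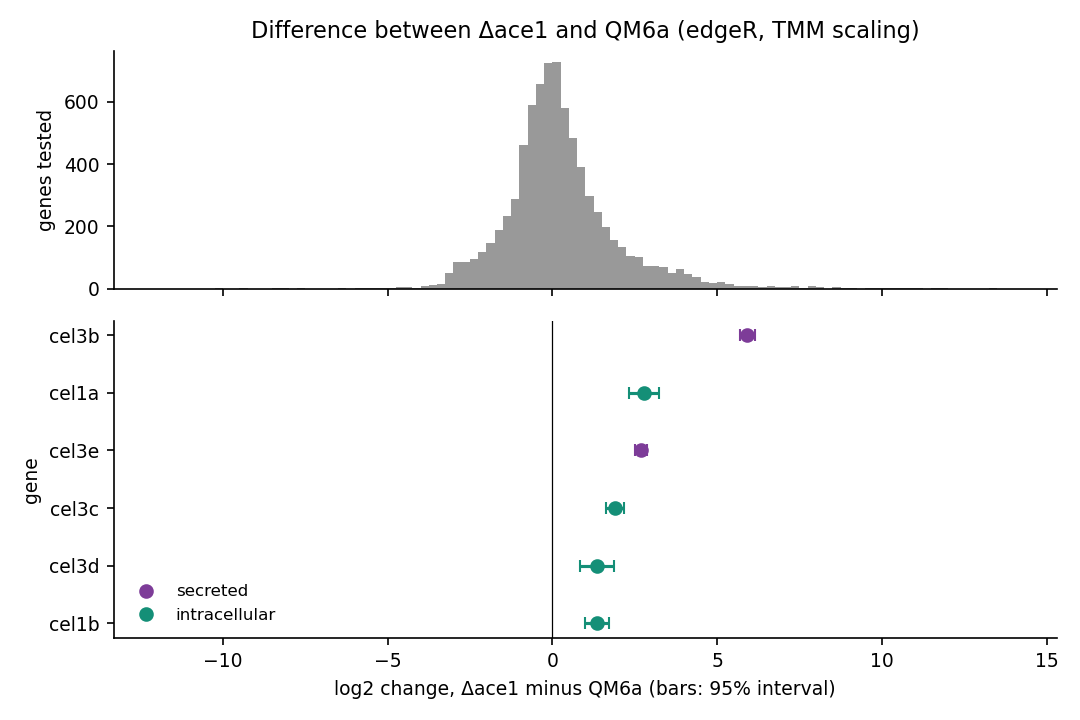
The upper panel is a histogram of the log2 change (Δace1 minus QM6a, edgeR with TMM) over the 7769 genes tested. The lower panel gives the 6 tested beta-glucosidase genes with bars of a 95% interval from the normal distribution. All 6 points lie right of 0, from 1.35 for cel1b to 5.92 for cel3b, and the bar of cel3b does not meet any other.

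Among the intracellular enzymes, cel1a had the largest change and the lowest level in QM6a. Counts were 93, 81 and 88 in the Δace1 replicates and 11, 6 and 12 in those of QM6a, which is 9.86, 9.38 and 10.5 TPM against 0.874, 0.550 and 1.08 TPM. The strains did not overlap, and the log2 change was 2.78 ± 0.23 (SE; edgeR, adjusted p = 8.26e-09). The other GH1 gene, cel1b, was at 10.3, 8.57 and 8.40 TPM in Δace1 and at 1.68, 2.29 and 2.33 TPM in QM6a. Its log2 change was 1.35 ± 0.18 (SE; edgeR, adjusted p = 3.78e-06). The libraries of the 2 genes overlapped in Δace1 and lay apart in QM6a, where cel1b was the higher.

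The ratio of cel1a to cel1b in TPM was 0.958, 1.09 and 1.25 in the Δace1 replicates and 0.520, 0.240 and 0.462 in those of QM6a. It was higher in each Δace1 library than in every QM6a library, as was the ratio of cel3b to cel3e. For both ratios the two-sided exact permutation p was 0.1 (n = 3 each), the smallest that 3 libraries against 3 allow, and 0.15 after Benjamini-Hochberg adjustment over 3 ratios. The ratio of cel3c to cel3d averaged 4.16 in Δace1 and 2.95 in QM6a, and the strains overlapped (two-sided exact permutation p = 0.2, n = 3 each, adjusted p = 0.2). The pairs were picked with their values already known.

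The intracellular GH3 genes were called higher as well. The gene cel3c was at 19.2, 17.2 and 14.9 TPM in Δace1 and at 2.92, 2.91 and 2.22 TPM in QM6a, and its log2 change was 1.90 ± 0.14 (SE; edgeR, adjusted p = 1.66e-09). For cel3d the values were 3.82, 5.54 and 3.45 TPM in Δace1 and 1.15, 1.14 and 0.590 TPM in QM6a. Its log2 change of 1.36 ± 0.26 had the widest error of the tested members (SE; edgeR, adjusted p = 0.000165). The strains did not overlap in either gene. QM6a replicate 3 had the lowest QM6a values of cel3b, cel3c and cel3d, whereas cel3e, cel1a and cel1b had their highest QM6a values in that library.

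The order of the levels differed between the strains. In QM6a the mean TPM fell from cel3b (7.18) and cel3e (5.99), whose libraries overlapped, to cel3c (2.68) and cel1b (2.10), which also overlapped. Below them came cel3d (0.959) and cel1a (0.834), overlapping again, and then cel3a. In Δace1 the order was cel3b (747), cel3e (66.3), cel3c (17.1), cel1a (9.92), cel1b (9.09), cel3d (4.27) and cel3a (0.638). There cel1a and cel1b were the only neighbours in the order whose libraries overlapped.

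The secreted enzymes made a larger share of the summed transcripts of the 7 genes in Δace1, and most of that share was cel3b. No gene outside these 7 entered the sums. The summed level of the 7 genes was 952, 822 and 789 TPM in the Δace1 replicates and 20.3, 19.8 and 19.2 TPM in those of QM6a. The secreted genes held 95.3 ± 0.209% of it in Δace1 and 66.7 ± 1.305% in QM6a (SD, n = 3 each). The summed secreted level was 20.1 ± 0.931 times the intracellular one in Δace1 and 2.01 ± 0.115 times in QM6a, a ratio within each library that no scaling between libraries can alter. The secreted sum was 814 ± 83.7 TPM in Δace1 and 13.2 ± 0.437 TPM in QM6a, and the intracellular sum 40.4 ± 2.95 and 6.58 ± 0.338 TPM. Both classes were higher in each Δace1 library than in any QM6a library.

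The gene cel3b alone made 86.7% to 88.5% of the summed TPM of the members in Δace1 and 31.6% to 38.8% in QM6a. With cel3b set aside, the other secreted genes, nearly all cel3e, made 60.6% to 64.3% of what remained in Δace1 and 43.6% to 52.6% in QM6a. The share of cel1b was 1.04% to 1.08% in Δace1 and 8.28% to 12.2% in QM6a, although its own level was higher in Δace1. No test was made of one class against the other, because 3 and 4 genes chosen by name are not replicates of a class. The log2 changes of the classes interleaved, since that of the intracellular cel1a, 2.78, was next to that of the secreted cel3e, 2.70.

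**Figure D3:**
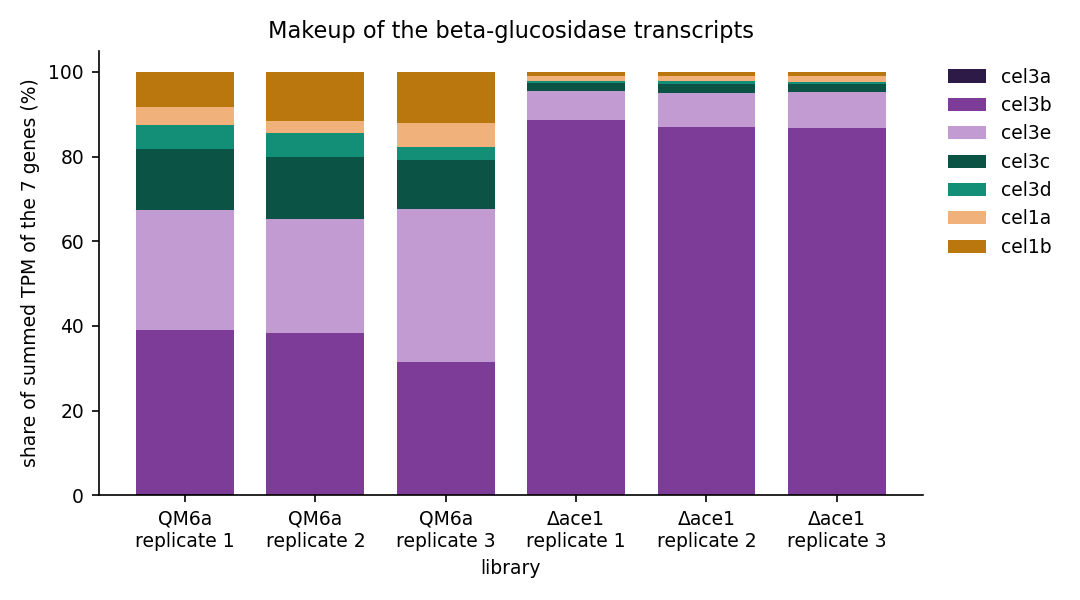
Stacked bars give the share of each gene in the summed TPM of the 7 beta-glucosidase genes, 1 bar per library, with purple shades for secreted and green or brown shades for intracellular enzymes. The intracellular share is 32.5% to 34.8% in the QM6a bars and 4.54% to 4.96% in the Δace1 bars.

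Most listed genes for the enzymes that act before the beta-glucosidases in cellulose breakdown had almost no counts in either strain. Of 13 listed genes for cellulases and cellulose-active proteins, 9 had at most 8 counts in any library and were not tested. One of these was cel7a, which encodes a cellobiohydrolase, with 8, 4 and 1 counts in the Δace1 replicates and 4, 3 and 2 in those of QM6a, so a difference was not detectable at this depth. Of the 4 tested genes 2 were called higher and 2 lower, where 41.2% and 39.5% of all genes tested were. TRIREDRAFT_123992 (listed as swo1, swollenin, which loosens cellulose) rose by 2.62 on the log2 scale. TRIREDRAFT_72567 (listed as cel6a, a cellobiohydrolase) rose by 2.38, from 4, 1 and 5 counts to 30, 21 and 19. Both genes passed the filter on low counts only through their Δace1 libraries. The endoglucanase gene cel5b was called lower with TMM, at -0.24, but higher at 0.27 under library totals and at 0.53 in limma's test of log2(TPM + 1), so its direction turned with the scaling. TRIREDRAFT_49081 (listed as cel74a, a xyloglucanase) was at -0.74 with TMM, and its difference was not called under library totals or in limma's test.

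Of 5 listed genes for the uptake of cellobiose and for control of the response, 4 were called higher and 1 lower, and all 5 were thus called where 80.8% of all genes tested were. Counts of the transporter gene TRIREDRAFT_3405 (listed as crt1, needed for induction by cellulose) were 741, 596 and 501 in the Δace1 replicates and 4, 9 and 5 in those of QM6a, and the log2 change was 6.26 ± 0.19 (SE); it too passed the filter only through its Δace1 libraries. TRIREDRAFT_52368 (listed as bglR, a regulator named for its effect on beta-glucosidase genes) had 3262, 2943 and 2666 counts against 1312, 1087 and 1103. Its log2 change was 0.96 ± 0.06 (SE; edgeR, adjusted p = 3.72e-10), smaller with TMM than that of each tested beta-glucosidase gene. On log2(TPM + 1) the order differed, with 1.72 for bglR, 1.70 for cel1b and 1.42 for cel3d. In mean TPM with no 1 added, bglR differed 3.32-fold, less than cel1b (4.32-fold) and cel3d (4.46-fold). The activator gene xyr1 rose by 1.53 and TRIREDRAFT_77513 (listed as ace3, an activator) by 0.61 on the log2 scale. The carbon catabolite repressor gene cre1 was lower, at -1.04 with TMM and -0.26 on log2(TPM + 1). All 5 genes kept their call and direction under RLE and upper-quartile scaling, under library totals and in limma's test of log2(TPM + 1). A gene of the conidial pigment, TRIREDRAFT_82208 (listed as pks4), served as the marker of spores and was not tested, with 7, 8 and 12 counts in the Δace1 replicates and 4, 8 and 5 in those of QM6a.

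**Figure D4:**
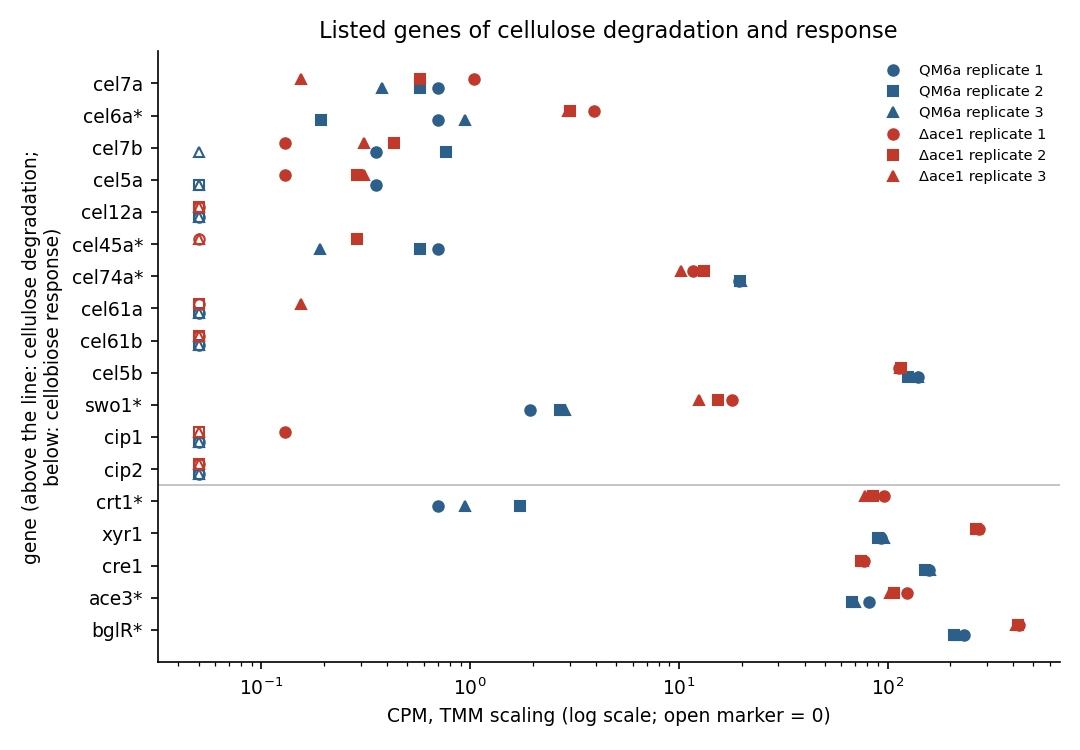
CPM scaled by TMM on a log axis in the 6 libraries for the 13 listed genes of cellulose degradation (above the line) and the 5 of the cellobiose response (below it), QM6a in blue and Δace1 in red. Open markers stand for libraries at 0, and an asterisk marks a name that comes from the gene list used here and not from the reference table; most cellulase genes lie at the low end for both strains, and crt1 shows the widest gap.

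The genes listed beside the members in the reference table were called higher about as often as all genes. Of the 28 genes within 2 places of a member, 27 were tested, and 11 of these (40.7%) were called higher and 9 (33.3%) lower, against 41.2% and 39.5% of all genes tested. Of the 11 higher genes 4 entered the test only through their Δace1 libraries, and 1 of the 9 lower genes only through its QM6a libraries, so these counts are not independent of the direction. The median log2 change was 0.14. Under library totals 16 were called higher and 6 lower, where 4705 and 1850 of all 7769 genes tested were. The beta-glucosidase genes were not listed next to each other, and the closest pair, cel3a and cel3d, stood 24 genes apart. No neighbour of cel3b was called higher with TMM, and TRIREDRAFT_121733, listed just before it, had a log2 change of -1.06. Under library totals the 2 genes listed after cel3b were called higher, TRIREDRAFT_61939 at 0.44 and TRIREDRAFT_77780 at 0.64. The median of all genes tested was 0.53 under that scaling, so these values lay close to it.

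The neighbours of single members differed among themselves. Beside cel3e, TRIREDRAFT_58701 and TRIREDRAFT_3055 rose by 3.78 and 4.18 on the log2 scale, and TRIREDRAFT_105263 by 1.78, while TRIREDRAFT_120884 was lower, at -0.49. The first 2 of these entered the test only through their Δace1 libraries. Beside cel3a, which had 28 counts in all of Δace1, TRIREDRAFT_121127 had 62, 80 and 55 counts in Δace1 and none in QM6a, so it too was tested through Δace1 alone. So was TRIREDRAFT_105816 beside cel3a, which rose by 3.85, while TRIREDRAFT_121126 rose by 0.96 and TRIREDRAFT_59402 was not called. Beside cel3c, 3 genes were lower, among them TRIREDRAFT_124084 with -2.29. Beside cel1a, TRIREDRAFT_57370 rose by 3.16, TRIREDRAFT_120747 by 1.66 and TRIREDRAFT_120751 by 0.76, and TRIREDRAFT_46128 was not called. The rise of TRIREDRAFT_57370 was larger than that of cel1a itself, 2.78. The gene listed just before cel1b was TRIREDRAFT_77513 (listed as ace3), and TRIREDRAFT_60945, 2 places after cel1b, fell by 4.35 on the log2 scale and was tested through its QM6a libraries alone.

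**Figure D5:**
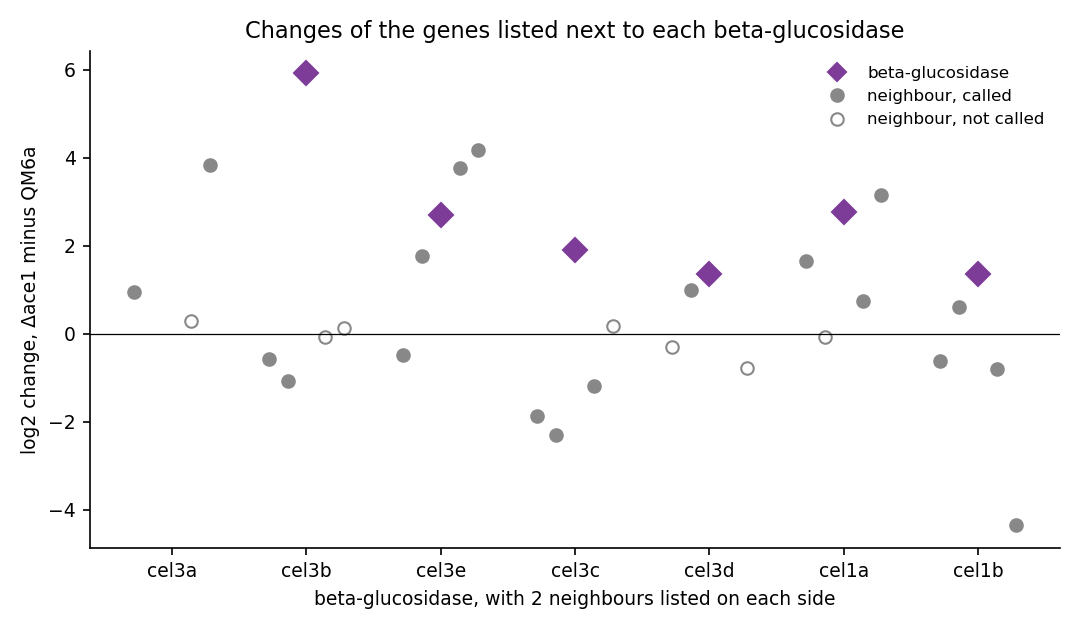
Log2 change (Δace1 minus QM6a, edgeR with TMM) of each tested beta-glucosidase gene (diamonds) and of the 2 genes listed on each side of it in the reference table (circles, filled where called at an adjusted p below 0.05). The untested cel3a and TRIREDRAFT_46819 and the gene beside cel3a with no count in QM6a have no point; neighbours lie on both sides of 0, and those of cel3b lie near or below it.

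The genes with levels most like those of cel3b were TRIREDRAFT_123827, TRIREDRAFT_73516 and TRIREDRAFT_124115, by Euclidean distance of log2 CPM over the 6 libraries (1.29, 1.302 and 1.54). TRIREDRAFT_124115 was at 1140 ± 94.7 CPM in Δace1 and 20.3 ± 2.55 CPM in QM6a (SD, n = 3 each), and the other two rose by 4.90 and 5.27 on the log2 scale. The nearest to cel1a were TRIREDRAFT_77836, TRIREDRAFT_64971 and TRIREDRAFT_56700, at distances of 0.612, 0.621 and 0.702. Like cel1a, each of them passed the filter on low counts only through its Δace1 libraries, and only tested genes were searched. The distance reflects level and strain difference together, and the reference table gives none of these 6 genes a symbol.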

How the data were processed

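Per the labels' protocols, poly(A)-enriched RNA went into stranded TruSeq libraries. The submitters' processing notes name FastQC 0.11.5, kallisto 0.43.1 and DESeq2 1.14.1. For the genome build and transcript set, the sources used here name none. The deposited sample tables hold an estimated count, a length and a TPM value per transcript, per the file headers, and the lengths are coding lengths (99.1% are multiples of 3). The deposited series table holds a normalized signal per gene, and once the authors' scaling factor of a sample was undone, 91.6% to 96.0% of its values were whole reads, to within 0.05. Transcripts and genes have different names and were joined here by their counts in the 6 libraries. For 9113 genes 99.3% of the values were equal once both were rounded to whole numbers, and each beta-glucosidase gene had 1 partner with 6 equal counts. Symbols came from a RefSeq table of assembly v2.0, which gives one for 5 of the 7 genes and 17 of 27 listed genes. The names cel3d, cel3e and those given as "listed as" come from the gene list.

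Rounded estimated counts were tested with edgeR 4.0.16 in R 4.3.3 (quasi-likelihood, TMM, filterByExpr with a minimum of 10 counts at the median depth in 3 libraries, robust), with p-values adjusted over all genes. A standard error is the log2 change over the square root of F. The 95% interval adds and subtracts this error times the normal quantile, so it is narrower than one from the F distribution would be. Members and lists were chosen with earlier results of these data known. The text names the members, ace1, listed genes, listed neighbours (added later) and the 3 genes nearest to cel3b and to cel1a. The planned search for similar proteins and promoter motifs was not run. Replicates varied beyond counting noise (chi-square of 2.87 to 27.6 per degree of freedom, highest for pairs with Δace1 replicate 3). Tested on simulated data for this comparison, with 200 genes changed and 7673 left after the filter, edgeR found 95% of the 2-fold and 99% of the 4-fold changes and made 8 false calls. The simulation had a common dispersion for all genes and as many rises as falls. In the real libraries 80.8% of genes were called, so these rates need not hold there. Alternatives were DESeq2 1.42.0, limma 3.58.1 on log2 values, other scalings and filters, a replicate block and each library left out. A fit to reads recovered from the series table was added after seeing the data and called 6274 genes, as many as the estimated counts. Genes and transcripts were joined by these same reads, so this match was largely fixed in advance.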

Additional observations from a re-analysis of the deposited data

How the results depend on the processing

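All 113 alternative values of the 6 tested beta-glucosidase genes kept the direction and the call, over each scaling, filter, tool and left-out library in which the gene was tested. The 113 include the fit to recovered reads, which were equal to the estimated counts for these genes. The count of members called higher was 6, except 7 with no filter (edgeR, or limma on TPM) and 5 with at least 50 counts in 3 libraries, which left out cel3d. The log2 change of cel3b ranged from 5.80 to 6.68 and that of cel3d from 1.10 to 2.07. Counts over all genes moved more. Against 3202 genes called higher, limma gave 5452 on log2(TPM + 1), 5780 with no filter and 5435 on log2(TPM + 0.1). Against 3072 called lower it gave 1324, 1331 and 1319, and library totals gave 1850. Of all calls, 51.0% were higher in the TMM fit, 71.8% in that on library totals and 80.5% in that on log2(TPM + 1). With cel3a and cel3b alone as secreted genes, their share of the summed TPM of the members was 87.4% in Δace1 and 36.3% in QM6a. TRIREDRAFT_49081 (cel74a) had 0.018, 0.018 and 0.019 on the 3 TPM scales, and cel5b 0.27 with library totals and 0.53, 0.53 and 0.54 on TPM. The cause was not tested. With the replicate block 6 members and 6223 of 7769 genes were called, against 6274 without it. Deviations of libraries with the same number correlated at -0.012, 0.044 and -0.0499, and those with different numbers at -0.082 to 0.073. These values cannot tell whether libraries with the same number were handled together. At these totals cel3a and 9 of the 13 listed cellulose genes had too few counts to pass the filter.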
